A study of Mus musculus with 81 samples.

Results

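The endogenous T-cell repertoire in blood was compared between 7 previously cured mice and 5 naive mice on day 65, 1 day before both groups were given EG7.OVA lymphoma cells. These 12 libraries were chosen from 81 by group and day alone, and the endogenous repertoire was taken as every productive rearrangement whose CDR3 was not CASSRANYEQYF, the CDR3 of the transferred OT-1 cells. All mice were CD45.1 Pep Boy animals (B6.SJL-Ptprca Pepcb/BoyJ). The cured mice had borne EG7.OVA tumors, had then been given 1e6 naive OT-1 cells and doses of artificial antigen-presenting cells, named mRBC-OVA-4-1BBL-IL-12, at 2.5e8 each, and had cleared the tumors. These are mouse red blood cells to which the OVA peptide SIINFEKL on H-2Kb, the costimulatory ligand 4-1BBL and the cytokine IL-12 were conjugated. The naive mice were age-matched, had never carried a tumor or received these cells, and were given 5e5 naive OT-1 cells on day 65, minutes before the blood was drawn. EG7.OVA is a line of EL4, a murine T-cell lymphoma, that expresses ovalbumin, and OT-1 cells are transgenic CD8 T cells that recognize SIINFEKL on H-2Kb. Both groups therefore carried transferred OT-1 cells, and earlier tumor, cure, earlier treatment and time since transfer differ together between the groups and cannot be told apart. The comparison asks what an earlier, cured tumor left in the rest of the T-cell repertoire before the next challenge.

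Each T-cell clone carries a TCRβ chain made by joining a V, a D and a J segment, with bases removed and non-templated (N) bases added at the joints. The joint lies in CDR3, the loop that makes most contacts with peptide on MHC, so the nucleotide sequence of a rearrangement serves as a tag for a clone. In blood of unchallenged mice most clones are naive and each is rare, while a clone that has met antigen can stay enlarged as memory.

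The immunoSEQ assay counts templates, estimates of the number of input DNA molecules, for each rearrangement. Endogenous templates ranged from 7350 to 11991 in cured mice and from 3184 to 6192 in naive mice, so every cured library was deeper than every naive library. OT-1 made up 0% to 4.57% of productive templates in cured mice and 7.86% to 12.9% in naive mice. Clones with 1 to 3 templates made up 99.1% to 99.8% of endogenous clones in every library. A count of 0 allowed a clone share of up to 0.0250% to 0.0408% in cured and 0.0484% to 0.0942% in naive mice (3 templates). Intervals and floors given here cover counting error only. No 2 libraries held the same repertoire. Any pair of the 12 shared 2 to 39 nucleotide rearrangements.

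The largest endogenous clones of most mice are shown first, since the comparison with day 73 turns on clones of this kind. The rearrangements are printed 5′ to 3′ in the coding direction as deposited, with the CDR3 in capitals from its conserved cysteine codon. The 87 bases stop before the last CDR3 codon, which encodes phenylalanine. The OT-1 rearrangement, left out throughout, is given for reference, and the second clone of cured mouse 5 is added because it was the clone that rose most by day 73.
OT-1, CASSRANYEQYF, TCRBV12-01/TCRBJ02-07: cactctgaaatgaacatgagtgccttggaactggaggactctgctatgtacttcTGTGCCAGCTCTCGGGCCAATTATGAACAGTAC
cured mouse 1, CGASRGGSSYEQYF, TCRBV20-01/TCRBJ02-07, 18 templates: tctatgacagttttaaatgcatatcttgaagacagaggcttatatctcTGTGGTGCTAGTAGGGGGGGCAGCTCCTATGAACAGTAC
cured mouse 2, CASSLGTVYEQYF, TCRBV12-01/TCRBJ02-07, 15 templates: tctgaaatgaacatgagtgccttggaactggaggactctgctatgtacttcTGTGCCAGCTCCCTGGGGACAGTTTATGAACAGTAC
cured mouse 4, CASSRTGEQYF, TCRBV14-01/TCRBJ02-07, 77 templates: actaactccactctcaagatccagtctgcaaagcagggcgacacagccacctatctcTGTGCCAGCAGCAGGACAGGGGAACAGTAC
cured mouse 5, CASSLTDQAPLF, TCRBV15-01/TCRBJ01-05, 56 templates: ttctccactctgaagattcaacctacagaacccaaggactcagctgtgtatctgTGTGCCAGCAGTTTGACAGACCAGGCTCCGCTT
cured mouse 6, TCRBV14-01/TCRBJ02-07, 287 templates: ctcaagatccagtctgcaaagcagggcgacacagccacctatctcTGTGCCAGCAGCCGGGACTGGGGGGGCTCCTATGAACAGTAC
cured mouse 7, TCRBV05-01/TCRBJ02-03, 22 templates: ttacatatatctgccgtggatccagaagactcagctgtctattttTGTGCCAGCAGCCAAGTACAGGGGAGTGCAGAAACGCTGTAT
cured mouse 5, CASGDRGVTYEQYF, TCRBV13-02/TCRBJ02-07, 27 templates: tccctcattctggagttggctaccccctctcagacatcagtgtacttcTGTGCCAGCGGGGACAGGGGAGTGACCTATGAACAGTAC
The largest clones of the naive mice had 6 to 10 templates, in shallower libraries.
naive mouse 1, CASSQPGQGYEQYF, TCRBV02-01/TCRBJ02-07, 10 templates: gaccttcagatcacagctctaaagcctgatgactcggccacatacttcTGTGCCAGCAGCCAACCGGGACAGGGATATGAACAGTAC
naive mouse 2, TCRBV05-01/TCRBJ02-01, 9 templates: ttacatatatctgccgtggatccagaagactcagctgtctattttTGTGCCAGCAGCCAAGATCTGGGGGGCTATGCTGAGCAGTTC
naive mouse 3, TCRBV02-01/TCRBJ02-07, 7 templates: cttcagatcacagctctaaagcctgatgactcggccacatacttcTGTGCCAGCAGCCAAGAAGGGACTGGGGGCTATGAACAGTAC
naive mouse 4, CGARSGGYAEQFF, TCRBV20-01/TCRBJ02-01, 7 templates: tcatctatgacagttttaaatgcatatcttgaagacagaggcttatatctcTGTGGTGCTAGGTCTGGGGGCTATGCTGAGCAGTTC
naive mouse 5, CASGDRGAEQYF, TCRBV13-02/TCRBJ02-07, 6 templates: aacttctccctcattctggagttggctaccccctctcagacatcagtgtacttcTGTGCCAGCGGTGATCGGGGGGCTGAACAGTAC
All 12 largest clones differed in sequence, and none of their rearrangements was found in the day 65 blood of another mouse.

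Clones of at least 10 templates were nearly all in cured mice, with 29 such clones there and 1 in naive mice. Cured mice 4, 5 and 7 had 7 each, cured mouse 6 had 5, and cured mice 1, 2 and 3 had 1 each, as did naive mouse 1. Every cured library was deeper than every naive library, and the deepest 3, those of cured mice 4, 6 and 7, had 7, 5 and 7 of these clones. Cured mouse 5, with 8395 endogenous templates, also had 7, while cured mouse 2, with 8467, had 1. This size was chosen after the values were seen, so the counts are a description with no test. After thinning all libraries to 3184 templates, the expected number of clones with at least 5 templates was 1.33 at the lowest, 2.64 at the median and 5.53 at the highest in cured mice. In naive mice it was 1.30, 2.17, 1, 1.99 and 0.159. Cured mice 4 to 7 lay above all naive mice, and cured mice 1 to 3 lay among them.

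The largest endogenous clone took 0.177% of endogenous templates at the lowest, 0.237% at the median and 2.51% at the highest in cured mice. In naive mice it took 0.175%, 0.211%, 0.220%, 0.158% and 0.0969%. The highest value was the TCRBV14-01/TCRBJ02-07 clone of cured mouse 6 (95% Wilson interval 2.24% to 2.81%). The lowest was the clone of naive mouse 5 (95% Wilson interval 0.0444% to 0.211%). The means, 0.678% ± 0.845 (SD, n = 7) and 0.172% ± 0.0492 (SD, n = 5), differed by 0.506 percentage points, which did not exceed the spread between mice (2-sided exact permutation test, p = 0.159, adjusted p = 0.310 over 8 measures). Without cured mouse 6 the difference was 0.201 percentage points. The 10 largest clones together took 1.70% ± 1.09 (SD, n = 7) and 1.01% ± 0.214 (SD, n = 5), a difference that did not pass the test either (exact permutation test, p = 0.232, adjusted p = 0.310). Without cured mouse 6 this difference fell from 0.689 to 0.374 percentage points.

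**Figure D1:**
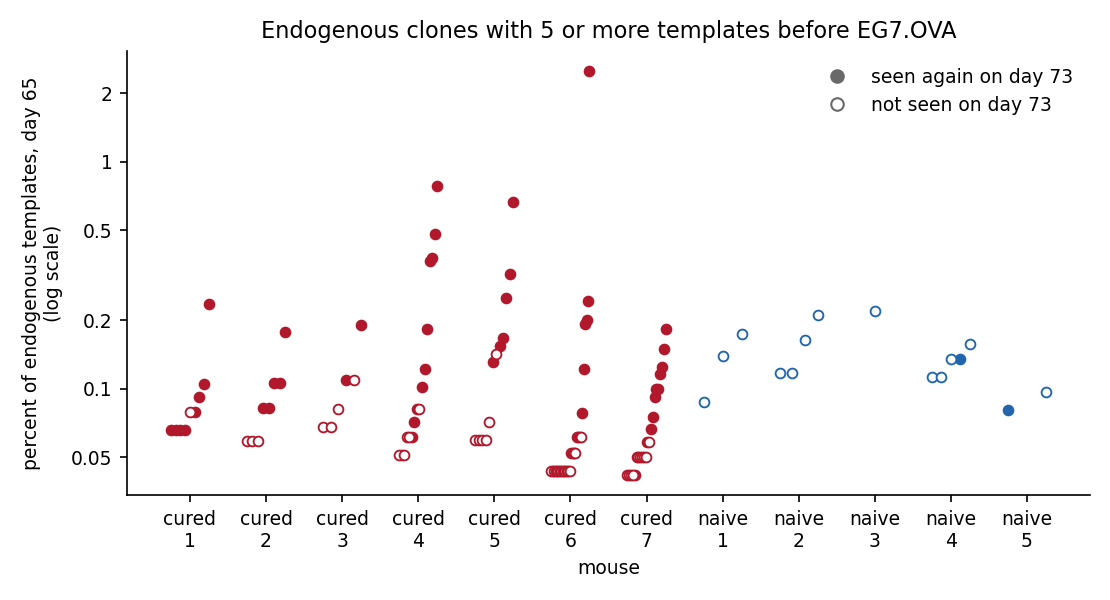
Share of endogenous templates (percent, log scale) of each clone with at least 5 templates on day 65, by mouse, with cured mice in red and naive mice in blue. Filled points were seen again in the same mouse on day 73. The clones above 0.3% are all in cured mice 4, 5 and 6, and 54 of 101 cured points and 2 of 15 naive points are filled.

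In cured mice 4 to 7, some of the large clones of a mouse shared a V segment. In cured mouse 4, 4 of the 7 clones of at least 10 templates used TCRBV19-01. They carried the CDR3s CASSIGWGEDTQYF (47 templates), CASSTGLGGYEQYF (37 templates), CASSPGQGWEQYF (36 templates) and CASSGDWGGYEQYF (18 templates). In cured mouse 7, 3 of 7 used TCRBV29-01, among them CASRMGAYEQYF (18 templates) and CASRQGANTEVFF (12 templates). The largest clones of cured mice 4 and 6 both used TCRBV14-01 with TCRBJ02-07, with different CDR3s. Over the 7 cured mice the 29 clones used 14 V segments, led by TCRBV19-01 with 6 clones, and 17 of the 29 used TCRBJ02-07. Among all endogenous templates of cured mice TCRBV19-01 took a mean of 7.60% and TCRBV29-01 3.50%. TCRBJ02-07 made up 18.9% of all their endogenous clones. Its clones held a mean of 2.17 templates each in cured mice, against 1.19 for all other clones together, and the cut at 10 templates rests on such counts. No CDR3 was carried by clones of at least 5 templates in more than 1 of the 12 mice. Of the 29, 9 had a CDR3 that was also present in another mouse, but 1 had its nucleotide rearrangement there, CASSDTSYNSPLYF of cured mouse 6. The share of all endogenous clones with a CDR3 present in another mouse was not computed. The sharing of V segments was noticed in these data and was not tested.

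The same mice were bled again on day 73, a week after EG7.OVA, which gave a second reading of the day 65 clones. Of the 10 largest day 65 clones, 2.30 at the lowest, 8 at the median and 9.5 at the highest were found again in cured mice. In naive mice the values were 0.5, 0.6, 1.03, 1 and 1. Values are fractional because clones tied at the last place were averaged. The groups did not overlap, and the means of 6.86 ± 2.54 (SD, n = 7) and 0.827 ± 0.256 (SD, n = 5) differed by 6.04 clones (exact permutation test, p = 0.00379, adjusted p = 0.0101). Endogenous depth on day 73 was 4281 to 8154 templates in cured and 4195 to 7371 in naive mice, and with day 73 libraries thinned to equal depth the difference was 5.96 clones. Day 65 libraries, deeper in every cured mouse, were not thinned for this count. Clones of at least 5 templates numbered 6 to 28 in cured and 1 to 5 in naive mice. The 10 largest of every naive mouse were thus filled up with smaller clones, in naive mouse 3 from 147 tied at 3 templates. The 10 are therefore not sets of like size. The day 73 library used for cured mouse 2 has the number of mouse 1 in its title and was assigned by its animal code, and without cured mouse 1 or cured mouse 2 the difference was 5.84 or 6.32 clones. Day 65 blood of cured mouse 2 shared 35 rearrangements with this library and at most 20 with the day 73 library of any other mouse.

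Return followed the size of the clone on day 65. Clones with 1 template were found again in 0.481% of cases in cured mice (163 of 33889) and 0.411% in naive mice (53 of 12896). For clones with 2 templates the shares were 0.652% and 0.552%, and with 3 templates 0.931% and 0.799%. With 4 templates they were 7.59% (11 of 145) and 6.12% (3 of 49). With 5 to 9 templates, 26 of 72 clones returned in cured mice and 2 of 14 in naive mice. Of the clones with at least 10 templates, 28 of 29 returned in cured mice and 0 of 1 in naive mice. Averaged by mouse, no size class up to 9 templates passed the test between the groups (5 classes, exact permutation tests, adjusted p from 0.701 to 0.937). The class of 5 to 9 templates had means of 37.4% ± 28.6 (SD, n = 7) and 14.0% ± 21.9 (SD, n = 5). Size here is a count of templates, in libraries of unlike depth. By share, the largest clones of cured mice 1, 2 and 3 had 0.237%, 0.177% and 0.190% and returned. Those of naive mice 1 to 5 had 0.175%, 0.211%, 0.220%, 0.158% and 0.0969% and did not return. These shares rested on 18, 15 and 14 templates in the cured and 10, 9, 7, 7 and 6 in the naive mice. A smaller clone of naive mouse 4 (0.135%) and 1 of naive mouse 5 (0.0807%) returned. A clone of cured mouse 5 (0.143%) and 1 of cured mouse 3 (0.109%) did not. Of all clones with at least 5 templates, 54 of 101 returned in cured and 2 of 15 in naive mice. The part of clone size in the difference in the return of the 10 largest clones was not tested. A rearrangement can also occur in another mouse. Over all sizes, naive mice 1 to 5 had 20, 19, 12, 16 and 20 day 65 rearrangements in their own day 73 library. They had at most 16, 10, 10, 15 and 11 in that of any other mouse. In cured mice 1 to 7 the counts were 44, 35, 22, 51, 47, 59 and 64, and at most 26, 20, 14, 23, 19, 32 and 33. The part of such sharing in the return of small clones was not tested.

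**Figure D2:**
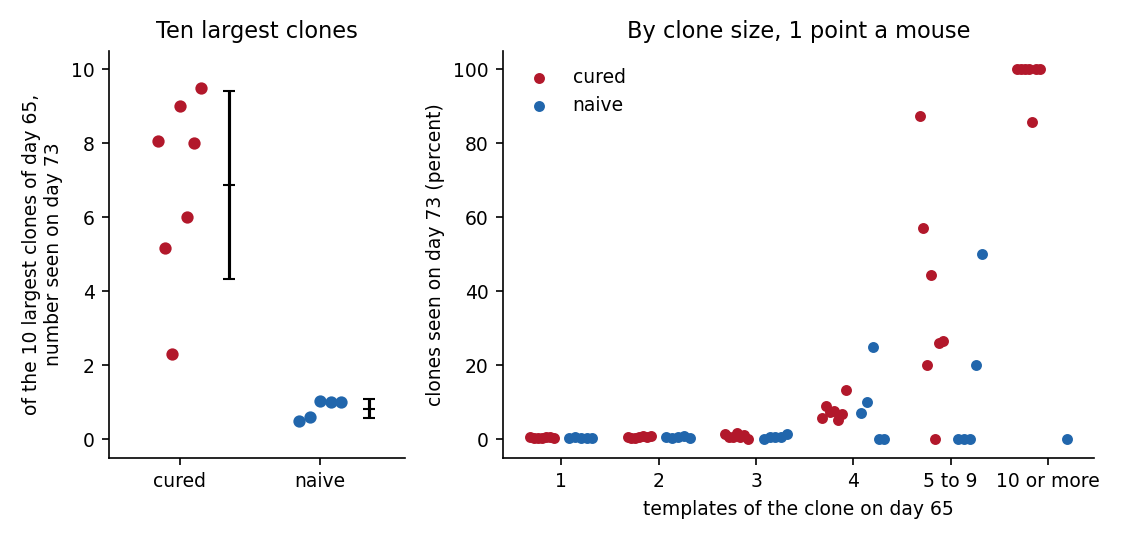
Left, the number of the 10 largest endogenous clones of day 65 seen again in the same mouse on day 73, with mean and SD in black. Right, the percent of clones seen again by the number of templates on day 65, 1 point a mouse, with cured mice in red and naive mice in blue. Left, all cured mice lie above all naive mice, and right, both groups stay under 2% up to 3 templates.

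Among the 29 large clones of cured mice, 16 had a higher share of endogenous templates on day 73 and 13 a lower one, 1 of these at 0. The ratio of day 73 to day 65 had a median of 1.62 and ran from 0 to 17.6. The 95% Wilson intervals of the 2 libraries did not overlap for 11 clones, 10 of them higher and 1 lower on day 73. The steepest rise was that of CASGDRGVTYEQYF (TCRBV13-02/TCRBJ02-07) in cured mouse 5, from 27 to 283 templates, or from 0.322% to 5.65%. The largest clone of cured mouse 4, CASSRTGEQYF, rose from 0.784% to 3.37%. The largest clone of all, in cured mouse 6, had 2.51% on day 65 and 1.94% on day 73 (95% Wilson interval 1.66% to 2.26%). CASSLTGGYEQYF of cured mouse 5 had 12 templates on day 65 and 0 on day 73, when its library could show 0.0599%. In naive mice the largest clone was at 0 on day 73 in 5 of 5. Intervals compare single libraries and not conditions, and days 65 and 73 differ by the challenge in both groups.

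**Figure D3:**
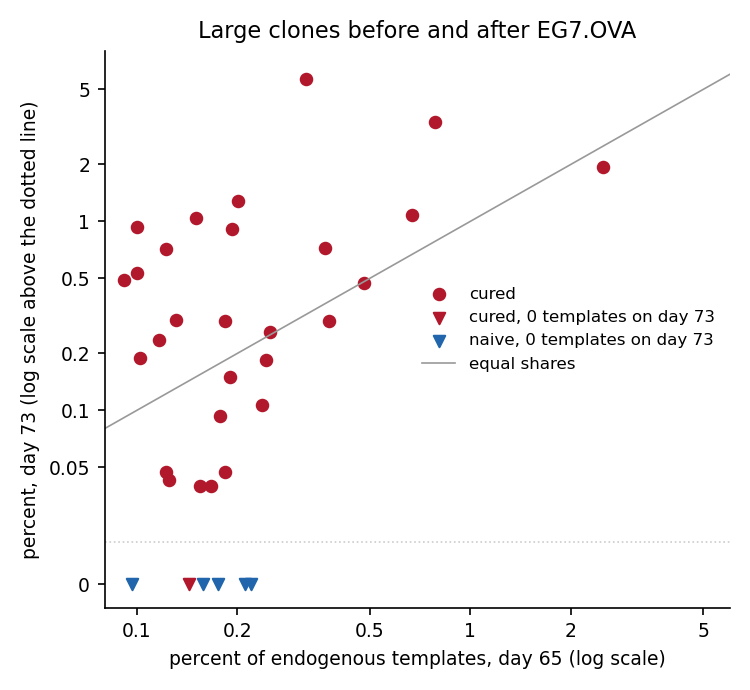
Share of endogenous templates on day 65 (x axis) and day 73 (y axis), in percent on log scales, of the 29 clones with at least 10 templates in cured mice (red) and of the largest clone of each naive mouse (blue). Points above the line rose, and triangles at the bottom had 0 templates on day 73, which holds for all 5 naive clones and 1 cured clone.

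Diversity was first compared after thinning every library to 3184 endogenous templates. Clonality, which is 0 when all clones are equally large and 1 when there is a single clone, was 0.00791 ± 0.00375 (SD, n = 7) in cured and 0.00813 ± 0.00202 (SD, n = 5) in naive mice (exact permutation test, p = 0.923). Cured mice ran from 0.00434 in mouse 7 to 0.0155 in mouse 6, a wider range than that of the naive mice, 0.00619 to 0.0111. Without thinning, clonality was 0.0141 ± 0.00480 (SD, n = 7) and 0.0100 ± 0.000775 (SD, n = 5), and the difference turned to 0.00402 (exact permutation test, p = 0.0518).

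Richness and the share of singletons were higher in cured mice at this equal depth. The direction of the singleton share and of clones per 1000 templates turned in settings that left depth unequal. Thinned libraries held 2811 ± 59.0 clones (SD, n = 7) in cured and 2601 ± 145 (SD, n = 5) in naive mice (exact permutation test, p = 0.00379, adjusted p = 0.0101). Singletons, clones with 1 template, took 78.5% ± 3.51 (SD, n = 7) and 65.8% ± 7.59 (SD, n = 5) of templates, with no overlap between the groups (exact permutation test, p = 0.00126, the smallest that 7 against 5 mice allow, adjusted p = 0.0101). Without thinning, singletons took 52.1% ± 2.46 (SD, n = 7) and 54.3% ± 1.38 (SD, n = 5), and the difference was -2.11 percentage points (exact permutation test, p = 0.112). With each library thinned to 30% of its own templates, a setting chosen after the data were seen, singletons took 81.2% ± 1.61 (SD, n = 7) and 83.7% ± 0.642 (SD, n = 5), a difference in the opposite direction (exact permutation test, p = 0.00631, adjusted p = 0.0168). Unthinned libraries likewise held 728 ± 18.3 (SD, n = 7) and 751 ± 8.14 (SD, n = 5) clones per 1000 templates (exact permutation test, p = 0.0152). These settings left the cured libraries deeper than the naive ones, so they do not compare the groups at equal depth. Thinning to 3184 templates in turn kept all of naive mouse 3 and a smaller part of each deeper library, the smallest of cured mouse 7 (11991 templates). It therefore did not treat the libraries alike either. In both groups singletons took more of the templates at 30% than without thinning. Depth moved with the group and with the thinned values, from 55.3% singletons in the shallowest library, naive mouse 3, to 84.4% in the deepest, cured mouse 7. Within naive mice 1 to 5 the thinned share was 73.3%, 63.4%, 55.3%, 63.7% and 73.2%, at 5712, 4258, 3184, 4435 and 6192 templates. The part of depth in the equal-depth difference was not tested.

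**Figure D4:**
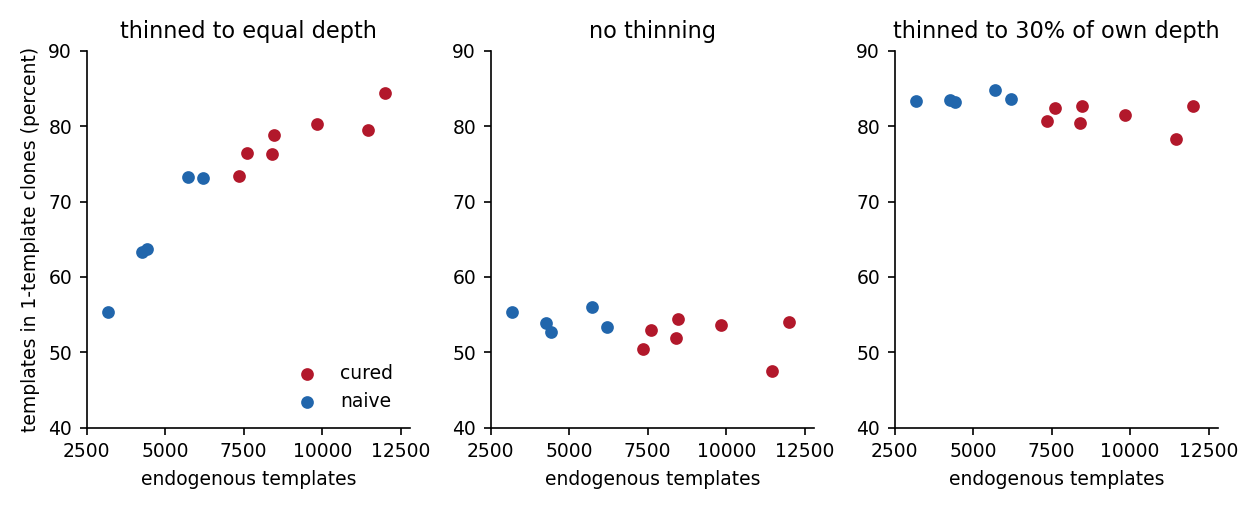
Percent of endogenous templates in clones with 1 template (y axis) against endogenous templates per library (x axis), 1 point a mouse, cured in red and naive in blue. At equal depth (left) the values climb with depth and the cured mice lie above the naive mice, and without thinning (middle) or at 30% of each library's own depth (right) they do not.

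J segment use differed for 2 of 12 segments (edgeR, 16.7% called). TCRBJ02-07, the segment used most in both groups, made up 28.7% to 31.2% of endogenous templates in cured mice, with a median of 29.3%. In naive mice it made up 26.8%, 28.0%, 27.4%, 26.1% and 28.8%, so the ranges overlapped only at their edges. The means were 29.7% ± 0.990 (SD, n = 7) and 27.4% ± 1.04 (SD, n = 5), a log2 difference of 0.12 (SE 0.03, edgeR adjusted p = 0.00220; exact permutation test, adjusted p = 0.0303). TCRBJ01-03 made up 5.43% to 6.44% in cured mice, with a median of 5.76%, and 6.99%, 6.58%, 6.25%, 7.17% and 6.54% in naive mice. It was lower in cured mice by a log2 difference of -0.20 (SE 0.06, edgeR adjusted p = 0.0149; exact permutation test, adjusted p = 0.0303). The next segments in overall use, TCRBJ02-05 with 9.20% and 9.57% and TCRBJ02-01 with 8.89% and 9.48% in cured and naive mice, did not pass the test. TCRBJ01-03 fell short of the threshold without cured mouse 4, naive mouse 1 or naive mouse 4 (edgeR adjusted p = 0.0509, 0.0806 and 0.0925).

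The TCRBJ02-07 difference passed the test for templates but not for clones. Counted once per rearrangement, TCRBJ02-07 made up 18.9% ± 0.537 (SD, n = 7) of clones in cured and 18.5% ± 0.660 (SD, n = 5) in naive mice (log2 difference 0.02, edgeR adjusted p = 0.744), and no J segment passed the test. Clones with this segment held 2.17 ± 0.0876 templates each (SD, n = 7) in cured and 1.97 ± 0.0588 (SD, n = 5) in naive mice, against 1.19 in both groups for all other clones together. The other segments differed among themselves, with means of 1.72 and 1.75 in cured and naive mice for TCRBJ01-05 and 1.01 and 1.00 for TCRBJ01-01. Of TCRBJ02-07 clones, 20.8% and 23.8% had a single template, while 83.5% and 83.2% of the other clones did. The difference was present without the enlarged clones, since clones under 5 templates gave 29.0% ± 0.551 (SD, n = 7) and 27.3% ± 1.08 (SD, n = 5) for TCRBJ02-07. Templates per clone thus varied with the J segment in both groups. Libraries were deeper in the group with more templates per TCRBJ02-07 clone, and the part of depth in this was not tested. Whether a count of 2 or 3 templates stands for as many molecules with every J segment was not tested either, and the singleton share, clonality and use by templates rest on such counts.

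**Figure D5:**
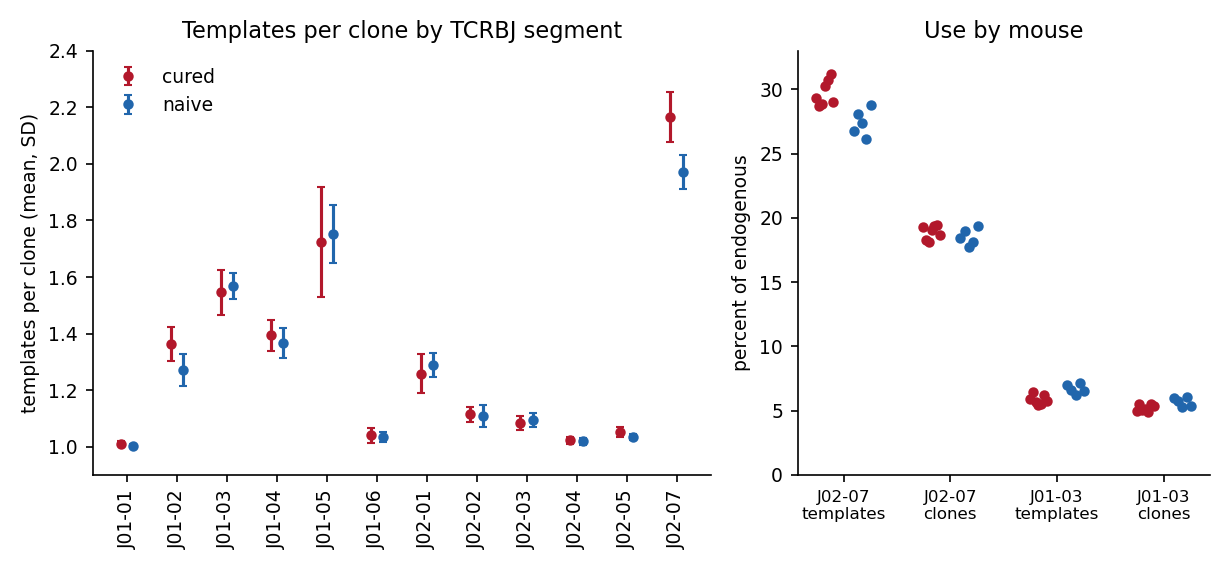
Left, mean number of templates per endogenous clone by J segment (error bars, SD over 7 cured mice in red and 5 naive mice in blue). Right, use of TCRBJ02-07 and TCRBJ01-03 by mouse as percent of templates and percent of clones. TCRBJ02-07 has the most templates per clone in both groups, and its cured and naive mice overlap only at their edges by templates and mix by clones.

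V segment use passed the test for 0 of 26 segments (edgeR, 0% called), with 4 at an unadjusted p under 0.05. TCRBV14-01 had the smallest p, with 2.80% to 5.08% of templates in cured mice and a median of 2.94%. In naive mice it had 2.42%, 3.03%, 2.07%, 2.48% and 2.75% (log2 difference 0.38, SE 0.13, edgeR adjusted p = 0.207). Cured mouse 6 was the highest, with its clone of 287 templates in this segment, and without that mouse the log2 difference was 0.23. TCRBV29-01 had means of 3.50% and 3.03% in cured and naive mice (edgeR adjusted p = 0.269). TCRBV24-01 had 1.01% to 1.23% in cured mice and 1.24% to 1.73% in naive mice, without overlap. It did not pass edgeR's test (adjusted p = 0.269) but was the 1 segment to pass the exact permutation test (adjusted p = 0.0328).

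None of the 5 V segments in most use passed edgeR's test, though TCRBV03-01 was among the 4 with an unadjusted p under 0.05. TCRBV13-02 led with 10.6% and 10.3% in cured and naive mice, followed by TCRBV03-01 with 7.24% and 7.95%. TCRBV19-01 had 7.60% and 7.44%, TCRBV02-01 had 6.50% and 6.57%, and TCRBV13-03 had 6.29% and 6.27%, with edgeR adjusted p from 0.300 to 0.978 for these 5. Vβ5, the family of the OT-1 chain (TCRBV12-01 and TCRBV12-02), made up 7.82% ± 0.529 (SD, n = 7) and 7.41% ± 1.72 (SD, n = 5) of endogenous templates. The Vβ8 segments TCRBV13-01, TCRBV13-02 and TCRBV13-03 made up 22.6% ± 0.566 (SD, n = 7) and 22.5% ± 0.327 (SD, n = 5). With TCRBV29-01 and TCRBV01-01, which invariant NKT cells also use, the sum was 31.6% ± 0.949 (SD, n = 7) and 31.4% ± 1.05 (SD, n = 5). None of the 7 segments in these lists passed the test, and their median log2 differences were 0.06 for Vβ5 and 0.01 for each of the other lists, against 0.00 over all V segments. TCRBV15-01, the V segment of a rearrangement present in all EG7.OVA tumors of the series, had 3.26% and 3.50% (edgeR adjusted p = 0.647).

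Of 272 V-J pairs, 0 passed the test (edgeR, 0% called) and 18 had an unadjusted p under 0.05. TCRBV14-01/TCRBJ02-07 had 0.790%, 1.00%, 0.939%, 1.77%, 1.10%, 3.49% and 0.851% of templates in cured mice 1 to 7 and 0.490%, 0.658%, 0.628%, 0.767% and 0.694% in naive mice 1 to 5, without overlap (log2 difference 1.16, SE 0.29, edgeR adjusted p = 0.0533). With the 10 largest clones of each mouse left out, the log2 difference was 0.65 and the pair passed the test (edgeR adjusted p = 0.0206). Without cured mouse 6 the log2 difference was 0.74 (edgeR adjusted p = 0.0748), and the exact permutation test gave an adjusted p = 0.738. TCRBV12-01/TCRBJ01-02 had 0.400% to 0.698% in cured mice, with a median of 0.614%, and 0.315%, 0.376%, 0.157%, 0.383% and 0.339% in naive mice (log2 difference 0.80, SE 0.20, edgeR adjusted p = 0.0533). It held no clone above 3 templates in any mouse. TCRBV13-01/TCRBJ01-03 was the pair with the smallest p among those lower in cured mice, at 0.270% and 0.476% (edgeR adjusted p = 0.143).

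Clones found in several mice were compared by their CDR3 amino acid sequence. In at least 4 of the 12 libraries 640 CDR3s were present, and 180 of them also had at least 10 templates in all. Of these 180, 0 passed the test (edgeR, 0% called). An unadjusted p under 0.05 was found for 28 by edgeR, 9 by the exact permutation test and 5 by DESeq2. Of the 28, 24 were absent from all naive mice, so they entered the test through the deeper cured libraries alone, and their number is no sign of a difference. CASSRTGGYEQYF had 3, 7, 0, 5, 5, 2 and 0 templates in cured mice 1 to 7 and 0 in all 5 naive mice (edgeR adjusted p = 0.265). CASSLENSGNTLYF had 1 template in 1 cured mouse and 4, 0, 2, 3 and 0 in naive mice, and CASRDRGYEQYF had 2 templates in 1 cured mouse and 3, 4, 0, 0 and 3 in naive mice (edgeR adjusted p = 0.265 for both). At these depths a CDR3 rests on a few templates per mouse. Per 1e6 possible pairs of clones, 2 cured mice shared a median of 0.471 rearrangements (21 pairs of mice), a cured and a naive mouse 0.448 (35 pairs) and 2 naive mice 0.513 (10 pairs), with overlapping ranges. For shared CDR3s the medians were 7.27, 7.66 and 8.60, with ranges of 6.32 to 8.18 between cured mice and 7.54 to 10.1 between naive mice. Pairs share mice and were not tested.

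Mean CDR3 length did not pass the test. It was 41.4 bases ± 0.137 (SD, n = 7) in cured and 41.5 ± 0.111 (SD, n = 5) in naive mice (exact permutation test, p = 0.207), and 14 residues was the length in most use, with 30.8% and 31.0% of templates. CDR3s of 10 residues took 1.03% ± 0.152 (SD, n = 7) and 0.728% ± 0.127 (SD, n = 5), and those of 11 residues 4.47% ± 0.452 (SD, n = 7) and 4.03% ± 0.306 (SD, n = 5), which were not tested one by one. With clones of 1 template left out, the difference in mean length went from -0.0994 to -0.366 bases (exact permutation test, p = 0.0328, adjusted p = 0.0657). Rearrangements without N bases, which are common among T cells made around birth and among CDR3s shared by many animals, took 8.94% ± 0.637 (SD, n = 7) and 8.65% ± 0.464 (SD, n = 5) of templates (exact permutation test, p = 0.389). Of the 29 large clones of cured mice, 2 had no N bases and 4 had a CDR3 of 15 residues or more. Among all endogenous templates of cured mice, rearrangements without N bases took 8.94%. CDR3s of 15 residues alone took 20.8% and those of 16 residues 7.43%.

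The 15 tumor libraries of the same series gave 2 lists to set beside the blood. They came from other mice that bore EG7.OVA and had been given OT-1 cells, and were taken on day 7 of that experiment. Some of these mice had received unmodified red blood cells. Others had received the same kind of artificial antigen-presenting cells as the cured mice, at a lower or a higher dose. Both lists pool control and treated tumors. A single rearrangement with the CDR3 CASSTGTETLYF (TCRBV15-01/TCRBJ02-03) was in 15 of 15 tumors and had 0 templates in all 12 day 65 libraries. CDR3s other than this and that of OT-1 that were present in at least 4 of the tumors numbered 125, and together took 0.980% to 1.18% of endogenous templates in cured mice and 0.986% to 1.15% in naive mice. The ranges overlapped, and the means were 1.05% ± 0.0726 (SD, n = 7) and 1.04% ± 0.0635 (SD, n = 5). Counted once each, they were 0.608% ± 0.0605 (SD, n = 7) of the distinct CDR3s in cured and 0.789% ± 0.0990 (SD, n = 5) in naive mice, with ranges of 0.525% to 0.684% and 0.676% to 0.917%. This share was lower in the deeper group of libraries and was not tested. Of the 29 large clones of cured mice, 8 had a CDR3 found in at least 1 tumor, and over all endogenous clones 12.6% to 14.0% did in cured and 12.5% to 14.3% in naive mice. The TCRBV05-01/TCRBJ02-03 clone of cured mouse 7 (22 templates) had its CDR3 in 5 tumors, and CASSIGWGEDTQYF of cured mouse 4 had its CDR3 in 3. These counts are a description, since other mice and short CDR3s can share an amino acid sequence without sharing a clone.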

How the data were processed

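TCRβ CDR3 regions were sequenced from genomic DNA of blood. According to the methods, the authors ran the immunoSEQ assay, a multiplex PCR with bias control followed by sequencing and by collapsing and filtering of the reads, and deposited a count of templates per nucleotide rearrangement, not normalized. The authors' error correction and filters, whose settings are not given in the sources used here, are part of these counts. The deposited CDR3 length and N insertion columns were also used. In 12 of 12 libraries the count equalled the deposited estimate of genomes.

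Groups and mouse numbers came from the labels. The titles number 2 day 73 libraries of cured mice as mouse 1, and 1 of them was assigned to cured mouse 2 by the animal code in its title. Clones are productive nucleotide rearrangements other than those encoding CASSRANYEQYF. Thinning to 3184 templates (the smallest library) was computed as a hypergeometric expectation. The 8 measures were tested with 2-sided exact permutation tests over 792 assignments of 7 and 5 mice and adjusted by Benjamini-Hochberg. V, J, V-J and CDR3 template counts were tested with edgeR's quasi-likelihood test, with endogenous templates as library size, on features present in at least 4 libraries with at least 10 templates in all, at a threshold of 0.05. SE is the log2 difference divided by the square root of F. Rearrangements without a resolved J segment held 0.0314% to 0.275% of templates and stayed in the library size. Features past the threshold were named (at most 10), otherwise the 3 with the smallest p, with the 5 V and 3 J segments in most use, the listed V segments and TCRBV15-01, and the largest clone of each mouse, except 1 that is not reported here. CDR3s of 15 residues or more are named by segments. Members, lists and tests were chosen with earlier results of these data known. The code was tested on simulated data. Versions were R 4.3.3, edgeR 4.0.16, DESeq2 1.42.0, python 3.11.15, numpy 2.4.6, pandas 2.3.3 and scipy 1.17.1.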

Additional observations from a re-analysis of the deposited data

Results flagged for a closer look

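In 5 of 52 groups of values tested, 1 mouse lay far from the rest of its group by Dixon's test at the 95% level, which chance alone gives for about 1 in 20 groups. All 5 were single cured mice at the top of their group, and 4 of the 5 were cured mouse 6, whose largest clone used TCRBV14-01 and TCRBJ02-07. In cured mouse 6, clonality at equal depth was 0.0155 against 0.00913 in the next cured mouse. Its largest clone took 2.51% of endogenous templates against 0.784% in the next mouse, its TCRBV14-01 use was 5.08% against 3.57%, and its use of the pair TCRBV14-01/TCRBJ02-07 was 3.49% against 1.77%. These 4 values share the clone of 287 templates and are not independent. In cured mouse 4, TCRBV19-01 took 9.78% of templates against 7.49% in the next mouse, and 4 of its 7 clones of at least 10 templates used this segment.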

How the results depend on the processing

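Of 239 alternative values for the 12 comparisons, 202 kept their direction and side of the threshold, and for counts of calls stayed within 1.5 times. Clonality turned without thinning to 0.00402, at 1000 templates to 0.000463, with Simpson's index to 0.00117, without clones of 1 template to 0.00592 and at 30% of each library's own templates to 0.00291, and no such difference passed the test. Leaving out 1 mouse gave clonality differences from -0.00149 (without cured mouse 6) to 0.000522 (without naive mouse 3), turning also without cured mice 1, 2 and 7. The singleton share turned to -2.11 percentage points without thinning and -2.47 at 30%. Richness fell short at 1000 templates (18.6 clones, adjusted p = 0.0976) and turned, as clones per 1000 templates, to -23.8 without thinning and -18.2 at 30%, both past the threshold. Without thinning and at 30% the cured libraries stayed deeper than the naive ones. The settings at 30%, clones per 1000 templates and the 5 to 9 template class were chosen after the data were seen. In that class the share of clones seen again on day 73 differed by 23.4 percentage points (adjusted p = 0.310), short of the threshold that the 10 largest clones passed.

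With OT-1, which was higher in every naive than in every cured library, kept in, clonality differed by -0.0530, and the share without N bases by 1.03, CDR3 length turned to 0.374 bases, and the largest clone and the 10 largest turned to -8.15 and -7.74 percentage points, all past the threshold. With each rearrangement counted once, CDR3 length turned to 0.0504 bases and calls of J segments by edgeR fell to 0, with 1 at an unadjusted p under 0.05. V segment calls became 1 without the filter (TCRBV14-01) and 1 by the permutation test (TCRBV24-01). V-J calls became 2 without the filter and 2 without the 10 largest clones.

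Leaving out 1 mouse gave 1 to 2 J segment calls, with TCRBJ01-03 lost without cured mouse 4 or naive mice 1 or 4 (edgeR adjusted p = 0.0509, 0.0806 and 0.0925), and 0 to 3 V-J calls, with 1 without cured mouse 1, 2 without cured mouse 3 and 3 without cured mouse 7 or naive mouse 4. It moved no other measure across the threshold. Same-numbered cured and naive mice are not the same animals, and over the 8 measures their departures from the mean of their own group correlated at -0.122, so numbers do not pair them. With the number as a replicate block over 5 pairs, richness differed by 189.9, the singleton share by 11.3 and the return of the 10 largest clones by 5.28 (each exact sign-flip p = 0.0625, the smallest that 5 pairs allow), and V-J calls became 3. Clones below 0.0942% of templates could be missed in the shallowest library.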
